A study of Mus musculus with 12 samples.

Results

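OCY454 is a mouse bone cell line that divides at 33 °C and is moved to 37 °C to become osteocyte-like. At day 14 at 37 °C, 2 libraries of OCY454 cells that lack exons 19 to 21 of Piezo1 after CRISPR-Cas9 editing (KO) were compared with 2 libraries of unedited OCY454 cells (WT). These are 4 of the 12 libraries of the series. The members were the libraries labelled day 14, and all 13772 genes with enough counts, of 32248 in the table, were described. The other 8 libraries are KO and WT cells at day 1 and at day 28, again 2 each. They were used for the shared estimate of spread and to ask whether the KO and WT difference was the same at the other days. KO and WT cells shared the line, the medium, the 12-well plates and the temperature shift. The labels give no number of edited clones and do not say that replicates are separate cultures, so the tests measure the spread between these samples, and the edit cannot be told apart from other differences between the cell stocks.

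Piezo1 encodes a cation channel that opens when the plasma membrane is stretched, and osteocytes are the matrix-embedded cells that sense load on bone. Bone-forming cells secrete large amounts of type I collagen, which is folded in the endoplasmic reticulum (ER) and leaves it in coated vesicles. When unfolded protein accumulates in the ER, the sensors IRE1, PERK and ATF6 raise the transcription of chaperone genes and, through ATF4, of genes for amino acid supply. This is called the unfolded protein response.

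Over the 12 libraries total counts ran between 8590132 and 15357433. They were 10868159 and 11927860 in KO and 11801796 and 8590132 in WT at day 14. Between replicates of day 14, 5 of 9232 genes with at least 10 CPM (counts scaled to the TMM-adjusted library total) in KO and 24 of 9419 in WT differed by more than 1.5-fold. At day 1 these were 2 of 9227 in KO and 5 of 9305 in WT. At day 28 they were 60 of 9083 in KO and 164 of 9326 in WT. The estimate of spread is shared by all groups, so the standard errors do not show the wider spread of day 28 separately. Piezo1 (chromosome 8, 122481698 to 122551329, minus strand, GRCm38) had 114.3 and 107.6 CPM in KO, against 210.7 and 206.1 CPM in WT. Its log2 fold change was -0.91 ± 0.06, adjusted p = 1.52e-10, so Piezo1 RNA fell in KO at day 14 without being lost, and the libraries did not overlap. Piezo1 averaged 169.6 ± 0.323 CPM in KO and 215.2 ± 1.13 CPM in WT (SD, n = 2 each) at day 1, where it was called lower (-0.34 ± 0.06), and 278.5 ± 4.19 CPM in KO and 238.5 ± 4.73 CPM in WT at day 28, where it was called higher (0.22 ± 0.06, adjusted p = 0.00418). The effect at day 14 was below that at day 1 (difference -0.57 ± 0.09) and that at day 28 (difference -1.13 ± 0.09). The table counts whole genes, so it does not show the deleted exons. Whether counting used strand is not given in the sources used here, so reads of Piezo1 cannot be told apart from those of Ctu2, which overlaps it on the opposite strand. The same holds for other genes named below, among them Avil (Tsfm), Zcwpw1 (Pilra), Pdia3 (Catsper2), Manf (Dcaf1), Ddit3 (Mars), Ndufa4l2 (Shmt2), Ankrd37 (Lrp2bp) and Pdia6 (Atp6v1c2), each with its partner in parentheses. All log2 fold changes are KO over WT from edgeR's quasi-likelihood fit, printed with their standard error after ±, and a gene is called when its adjusted p is below 0.05. Rose and fell mean called higher and lower in KO than in WT at the same day, not a change in KO from an earlier day.

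At day 14, 3280 genes (23.8% of those tested) rose in KO and 3562 (25.9%) fell, with a median log2 fold change over all genes of -0.02. More than 2-fold changes were 458 higher (3.33%) and 1285 lower (9.33%). KO and WT libraries did not overlap for 10516 genes (76.4%), in 1 direction or the other. They did not overlap for 6840 of the 6842 called genes. Absence of overlap thus says little of a single gene here and adds nothing to a call. The plot of fold change against level places Hspa5, Hsp90b1 and Calr low among abundant genes, and Col1a1, Col1a2 and Col6a3 high. These percentages are the background against which the members of each gene group are read.

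**Figure D1:**
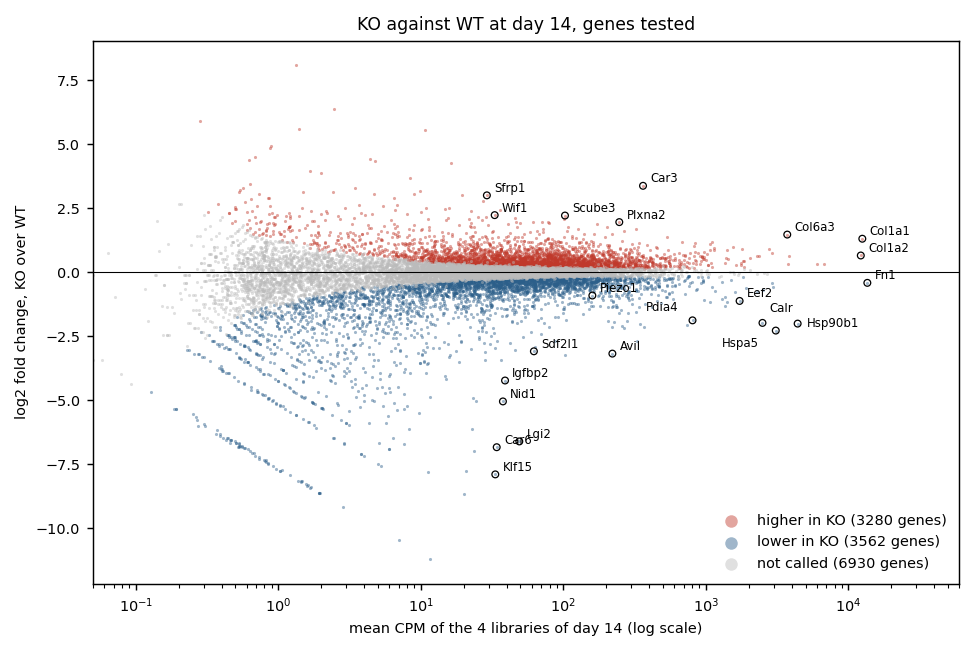
Log2 fold change of KO over WT at day 14 (vertical axis) against the mean CPM of the 4 libraries (horizontal axis, log scale), with 1 point per gene tested. Red points are the 3280 genes called higher in KO, blue points the 3562 called lower and grey points the rest, and circles mark a selection of genes named in the text, of which Klf15 is lowest at -7.89 and Car3 highest at 3.37. The slanted lines of points at low CPM are genes with few or no counts in KO, whose fitted fold changes are not bounds.

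Part of the difference was already there at day 1. Of the 3562 genes lower at day 14, 1942 were also called lower at day 1, which is 54.5% of the day 14 genes and 67.9% of the 2859 genes lower at day 1. Of the 3280 higher genes, 1756 were called higher at day 1, which is 53.5% of the day 14 genes and 65.4% of the 2685 higher at day 1. At day 28, 1772 of the lower genes (49.7%, and 60.8% of the 2916 lower at that day) and 1532 of the higher genes (46.7%, and 56.1% of 2729) were called in the same direction. The difference itself was tested: 2595 genes had another KO effect at day 14 than at day 1, with 1266 (9.19%) higher and 1329 (9.65%) lower at day 14. Without KO day 1 replicate 2 they numbered 1668, and without KO day 14 replicate 1 they numbered 1679. Against day 28 there were 3323, with 1585 (11.5%) higher and 1738 (12.6%) lower.

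The 12 lowest fold changes among messenger RNA genes at 50 CPM or more lay between -7.89 and -3.05, and 3 of these genes were nearly silent in KO. Klf15, a Krüppel-like transcription factor (chromosome 6, 90462576 to 90475238, plus strand), had 0.189 and 0.343 CPM in KO, against 66.7 and 66.0 CPM in WT (-7.89 ± 0.29, adjusted p = 7.77e-15). The secreted carbonic anhydrase gene Car6 had 0.755 and 0.429 CPM in KO, against 68.9 and 66.2 CPM in WT (-6.83 ± 0.24). Both were near 0 in each KO library and abundant in each WT library. Lgi2, which encodes a secreted leucine-rich glycoprotein, had 1.04 and 0.943 CPM in KO, against 97.8 and 96.5 CPM in WT (-6.60 ± 0.19). Nid1, for the basement membrane linker nidogen, was at -5.04 ± 0.22, and the insulin-like growth factor binding protein gene Igfbp2 at -4.23 ± 0.14. Next came the proteoglycan gene Cspg4 (-3.44 ± 0.20), Pgm5 (-3.41 ± 0.16), Cdsn (-3.21 ± 0.09) and the actin-severing gene Avil (-3.18 ± 0.08). The row ended with Zcwpw1 (-3.11 ± 0.14), the ER chaperone cofactor gene Sdf2l1 (-3.09 ± 0.09) and the mRNA-binding protein gene Igf2bp2 (-3.05 ± 0.10). All 12 of these genes were also called lower at day 1, and 9 of them at day 28.

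The highest was Car3, a cytosolic carbonic anhydrase gene (chromosome 3, 14863512 to 14872523, plus strand). It had 665.1 and 655.2 CPM in KO, against 61.9 and 65.8 CPM in WT (3.37 ± 0.11, adjusted p = 1.48e-15), so both KO libraries lay far above both WT libraries. At day 1 Car3 averaged 59.9 ± 3.91 CPM in KO and 32.7 ± 2.85 CPM in WT (SD, n = 2 each), and at day 28 12.3 ± 4.58 CPM in KO and 15.9 ± 2.5 CPM in WT. Its KO effect at day 14 exceeded that at day 1 by 2.5 ± 0.16 and that at day 28 by 3.78 ± 0.20 on the log2 scale. Of the other 11 highest genes, 3 encode secreted Wnt pathway proteins: the inhibitors Sfrp1 (3.0 ± 0.14) and Wif1 (2.23 ± 0.17) and the ligand Wnt6 (1.97 ± 0.11). Prickle1, of the planar cell polarity pathway, was at 2.08 ± 0.09, and the axon guidance genes Sema6a and Plxna2, a semaphorin and a plexin, were at 2.41 ± 0.15 and 1.96 ± 0.12. The others included Scube3 (2.21 ± 0.11), Mdga1 (2.13 ± 0.14), the hyaluronan-degrading factor gene Cemip (1.97 ± 0.12) and the secreted kinase gene Pkdcc (1.94 ± 0.09). Wnt6 and Plxna2 lie on chromosome 1, whose genes had a median fold change of 0.41.

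By difference in CPM, which also grows with transcript length, the 10 largest losses among messenger RNA genes were, in order, Hsp90b1, Hspa5, the fibronectin gene Fn1 (-0.42 ± 0.07), Calr, the translation elongation gene Eef2 (1108 and 1061 CPM in KO, against 2323 and 2398 CPM in WT), Pdia3, the elongation gene Eef1a1 (-0.69 ± 0.07), the bone sialoprotein gene Ibsp (-0.56 ± 0.13), Canx and Pdia4. Of these, 6 encode ER folding proteins. The 10 largest gains included the collagen genes Col1a1, Col6a3, Col1a2 and Col5a2 and the mitochondrially encoded mt-Cytb, mt-Nd1, mt-Nd5 and mt-Co1. The others were the nucleolin gene Ncl (0.63 ± 0.07) and Hdlbp (0.63 ± 0.07), for the RNA-binding protein vigilin. Col6a3, Col5a2 and Hdlbp are among those on chromosome 1, whose genes had a median fold change of 0.41. Col5a2 (0.32 ± 0.08) and mt-Co1 (0.34 ± 0.11; 0.28 and not called without KO replicate 2, 0.20 and not called without WT replicate 2) turned to -0.09 and -0.32 once the median fold change of their chromosomes, 1 and the mitochondrial genome, had been removed.

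ER chaperones and folding enzymes fell almost as a whole in KO at day 14. Of 20 measured, 0 rose, 19 fell and 1 did not pass the test (median -1.89). Of these, 17 fell more than 2-fold. Hspa5, which encodes BiP, the main ER chaperone and a brake on the unfolded protein sensors (chromosome 2, 34771970 to 34777547, plus strand), had 1080.5 and 1032 CPM in KO, against 4987 and 5262 CPM in WT (-2.28 ± 0.07, adjusted p = 5.73e-16). Sdf2l1, a cofactor of BiP, had 13.03 and 13.1 CPM in KO, against 112.1 and 110.2 CPM in WT (-3.09 ± 0.09). The ER lectin chaperone gene Calr had 1024 and 994.1 CPM in KO, against 3909 and 4044 CPM in WT (-1.98 ± 0.07). In all 3, each KO library lay far below each WT library, and replicates differed little. The same held for the ER paralogue of HSP90, Hsp90b1 (1744 and 1763 CPM in KO, against 6740.4 and 7351 CPM in WT, -2.01 ± 0.09), the secreted survival factor gene Manf (-2.17 ± 0.07), the large chaperone gene Hyou1 (-2.14 ± 0.09) and the disulfide isomerase genes Pdia6 (-2.05 ± 0.07), Pdia4 (-1.88 ± 0.08) and Pdia3 (-1.33 ± 0.07). P4hb, for a disulfide isomerase that is also a subunit of prolyl hydroxylase, fell less (-0.60 ± 0.06), and Txndc5 (-0.09 ± 0.07, adjusted p = 0.291) was not called.

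**Figure D2:**
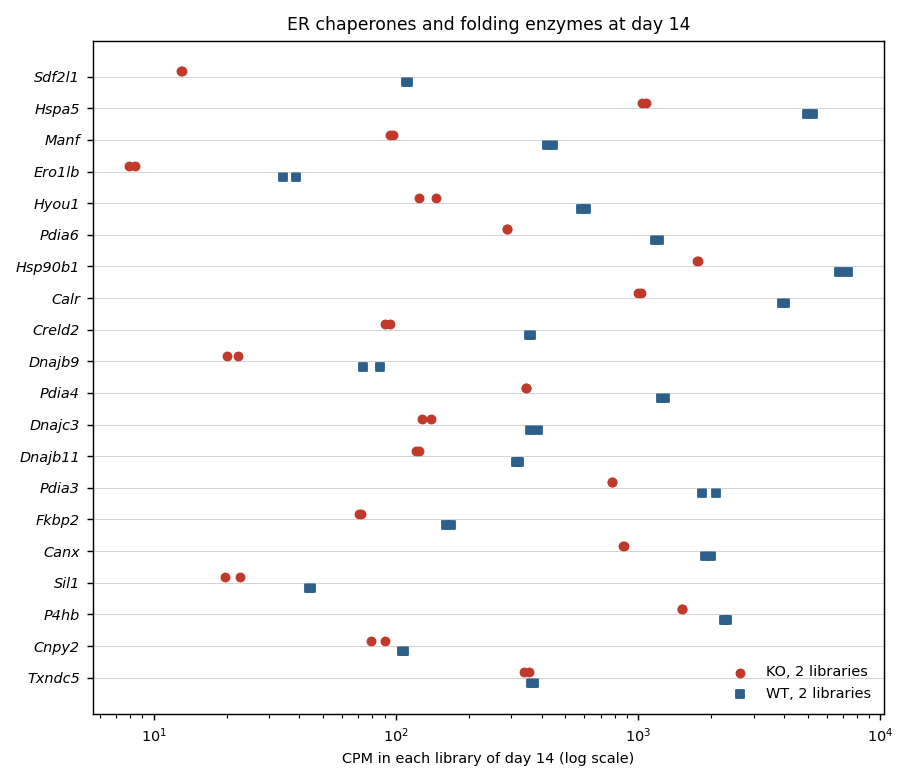
CPM of 20 ER chaperone and folding enzyme genes in each library of day 14 (horizontal axis, log scale), with KO libraries as red circles above WT libraries as blue squares. Genes run from the lowest fold change (Sdf2l1, -3.09) at the top to the highest (Txndc5, -0.09) at the bottom, and in every row the KO circles lie left of the WT squares.

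The lower level at day 14 was not a level the KO line kept. Hspa5 averaged 1005 ± 12.9 CPM in KO and 1037 ± 35.6 CPM in WT at day 1. It averaged 1056 ± 34.2 CPM in KO and 5124 ± 195.0 CPM in WT at day 14 and 12475 ± 902.0 CPM in KO and 10059 ± 397.0 CPM in WT at day 28. Summed over the 20 genes, the KO libraries held 7453 and 7384 CPM at day 1 against 7059 and 6998 in WT. At day 14 they held 8818 and 8697 CPM against 26998 and 28567 in WT, and at day 28 64746 and 60564 CPM against 39491 and 45265 in WT. The list's median fold change was 0.00 at day 1 and 0.29 at day 28. For 19 of the 20 genes the KO effect was called lower at day 14 than at day 1, and for all 20 it was called lower than at day 28. At day 14 the KO levels were thus near those of both lines at day 1, while the WT levels lay between their day 1 and day 28 levels. Sdf2l1 followed the same course, with 10.0 ± 0.735 CPM in KO and 13.5 ± 1.89 CPM in WT at day 1. It averaged 13.1 ± 0.0633 CPM in KO and 111.1 ± 1.39 CPM in WT at day 14 and 233.8 ± 5.40 CPM in KO and 216.3 ± 9.61 CPM in WT at day 28. Calr averaged 1091 ± 1.78 CPM in KO and 668.1 ± 31.9 CPM in WT at day 1 and 8266 ± 338.0 CPM in KO and 5430.2 ± 515.0 CPM in WT at day 28, so it was higher in KO than in WT on both sides of day 14.

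**Figure D3:**
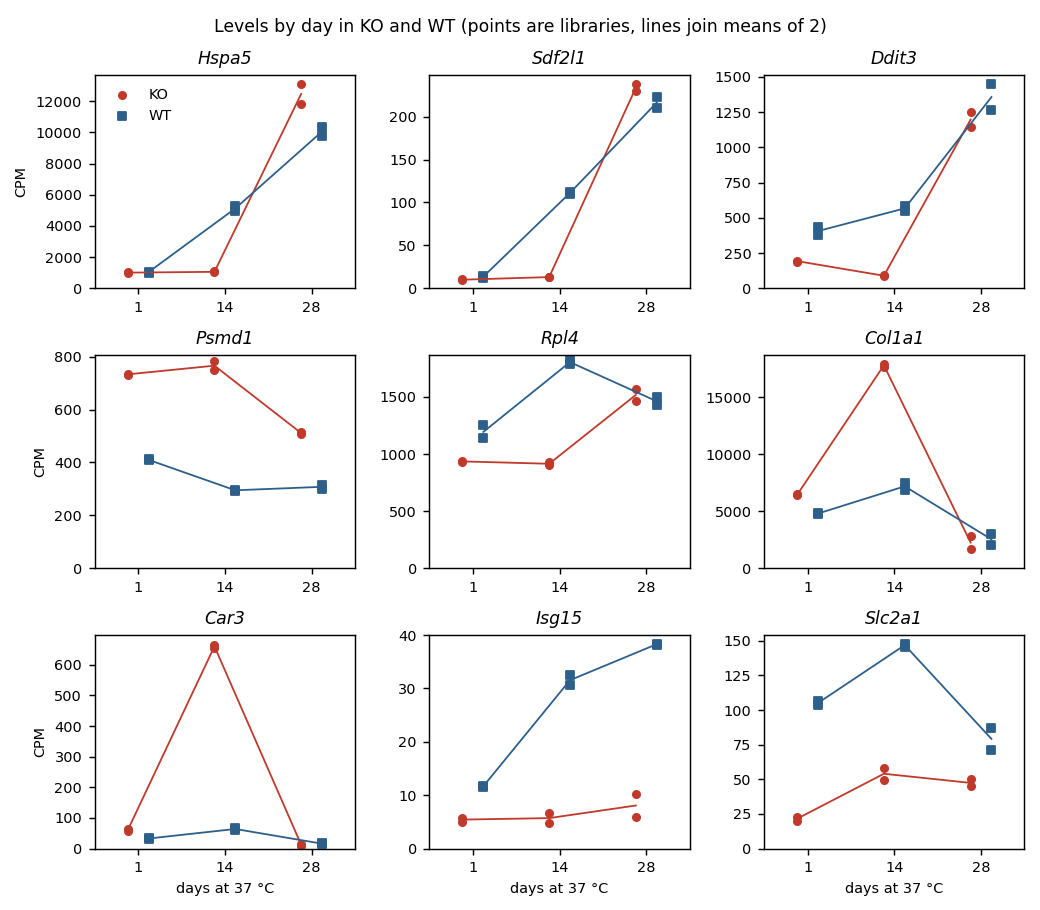
CPM (vertical axes, from 0) of 9 genes at days 1, 14 and 28 at 37 °C (horizontal axes, the 3 days equally spaced), with KO libraries as red circles, WT libraries as blue squares and lines joining the means of 2 libraries. Hspa5 and Sdf2l1 differed by less than 1.5-fold between the lines at day 1, were far lower in KO at day 14 and were not lower in KO at day 28, whereas Psmd1 was higher and Isg15 lower in KO at all 3 days, and Car3 reached its highest level in KO at day 14.

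The promoter windows of these genes, 250 bases before to 50 after the RefSeq start (GRCm38.p6), were searched on both strands for the ER stress element, CCAAT and CCACG separated by 9 bases, which ATF6 is known to bind with the factor NF-Y. Of the genes tested, 10537 had a window, and 16 of these (0.152%) held the element. The share was 0.938% (9 of 960) among genes that fell more than 2-fold and 0.0% (0 of 303) among those that rose more than 2-fold. It was 43.8% (7 of 16 with a window) among the ER folding genes. These 7 are among the 9 above, so both shares rest largely on the same genes, and the list was chosen with earlier results known. Of the 16 genes with the element, 11 fell, 0 rose and 5 were not called at day 14, where 25.9% of all genes tested fell. The 11 include the 7 folding genes. Outside the folding list these were the ERAD ligase gene Syvn1 (-1.03 ± 0.11), Zfp57 (-1.08 ± 0.10), the acetyl-CoA carboxylase gene Acacb (-0.96 ± 0.21) and the adenylyl cyclase gene Adcy3 (-0.50 ± 0.10) among the lower ones. Alg12, Derl3, Gm6566, Pan2 and Hnrnpa3 were not called. In 1 gene the element overlapped a hypoxia element core, ACGTG. A match describes these letters and does not show that a factor is bound. The stretches around the element are shown for 7 folding genes, on the gene's strand 5′ to 3′, with both parts of the element in capitals. They are shown because 7 of the 16 folding genes with a window hold the element, and the other 9 do not. In Calr and Creld2 it lies on the other strand, and Hsp90b1 holds a second match outside the stretch.
Hspa5: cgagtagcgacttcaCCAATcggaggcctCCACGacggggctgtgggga
Hsp90b1: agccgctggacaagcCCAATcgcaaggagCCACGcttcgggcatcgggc
Dnajc3: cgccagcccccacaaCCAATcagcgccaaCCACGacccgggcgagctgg
Pdia6: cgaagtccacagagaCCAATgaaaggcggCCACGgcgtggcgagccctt
Calr: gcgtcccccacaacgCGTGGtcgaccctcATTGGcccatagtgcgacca
Canx: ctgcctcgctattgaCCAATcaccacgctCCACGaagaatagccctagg
Creld2: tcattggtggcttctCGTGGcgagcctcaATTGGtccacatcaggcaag
The stretches lie at chr2:34772010-34772058 (plus strand) (Hspa5), chr10:86705623-86705671 (minus strand) (Hsp90b1), chr14:118937812-118937860 (plus strand) (Dnajc3), chr12:17266476-17266524 (plus strand) (Pdia6), chr8:84847060-84847108 (minus strand) (Calr), chr11:50325785-50325833 (minus strand) (Canx) and chr15:88819505-88819553 (plus strand) (Creld2).

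Of 11 ER stress sensors and their transcription factors, 1 rose, 8 fell and 2 did not pass the test (median -0.70). Ddit3, which encodes the stress-induced factor CHOP, had 84.6 and 93.4 CPM in KO, against 585.7 and 548.5 CPM in WT (-2.67 ± 0.09), with no overlap. The IRE1 gene Ern1 (-1.16 ± 0.08), the sensor-like factor gene Creb3l2 (-0.83 ± 0.08), Atf4 (-0.70 ± 0.06), and Xbp1 (-0.46 ± 0.08) also fell. Atf6 was called lower (-0.25 ± 0.09) but not without any 1 of the 4 libraries, when its fold change lay between -0.22 and -0.27. Creb3l1, a membrane-bound factor known to drive collagen and secretory genes in osteoblasts, was the member that rose (0.77 ± 0.13). The PERK gene Eif2ak3 (-0.13 ± 0.08) and Atf6b (0.00 ± 0.08) were not called.

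Of 20 genes of ER-associated degradation and translocation, 1 rose, 13 fell and 6 did not pass the test (median -0.32). The stress-induced members Herpud1 (-1.76 ± 0.12), Sel1l (-1.36 ± 0.07), Edem1 (-1.31 ± 0.07) and Syvn1, which pull misfolded protein from the ER, fell most, and Edem3, on chromosome 1, rose (0.53 ± 0.08). The translocon genes Sec61a1 and Ssr1 were at -0.31 ± 0.07 and 0.07 ± 0.07, the second of them not called. ER-to-Golgi transport went the other way: 12 rose, 4 fell and 4 did not pass the test (median 0.25), out of 20. The COPII coat gene Sec13 had 207.5 and 201.6 CPM in KO, against 97.1 and 94.1 CPM in WT (1.10 ± 0.07). Sec24d (0.75 ± 0.08), Sec23a (0.36 ± 0.07), the COPI gene Copb2 (0.56 ± 0.08) and the KDEL receptor gene Kdelr3 (0.69 ± 0.08) rose with it. The cargo receptor genes Tmed2 (-0.66 ± 0.08) and Lman2 (-0.48 ± 0.07) fell. Sec23a and Sec24d encode coat subunits known to be needed for procollagen export, and they rose in KO at day 14 while most genes for protein folding in the ER fell.

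Targets of ATF4 in the integrated stress response fell too: 1 rose, 13 fell and 2 did not pass the test (median -1.47), out of 16. Of these, 10 fell more than 2-fold. The pseudokinase gene Trib3 had 22.4 and 24.9 CPM in KO, against 152.7 and 151.7 CPM in WT (-2.69 ± 0.08). The cystine transporter gene Slc7a11 had 3.59 and 3.69 CPM in KO, against 17.96 and 19.9 CPM in WT (-2.37 ± 0.20). The hormone genes Stc2 (-3.06 ± 0.25) and Gdf15 (-3.05 ± 0.29), the cysteine-making enzyme gene Cth (-3.06 ± 0.26), Atf5 (-1.60 ± 0.07), the glutathione-degrading gene Chac1 (-1.24 ± 0.17), the phosphatase subunit gene Ppp1r15a (-1.46 ± 0.10) and the asparagine synthetase gene Asns (-1.0 ± 0.07) also fell. Unlike the chaperones, this list was low in KO at day 1 as well, with medians of -1.23 at day 1, -1.47 at day 14 and -0.15 at day 28. Its KO effect was called lower at day 14 than at day 1 for 4 genes and than at day 28 for 12. The C/EBP-ATF element, TGATG and AA separated by 1 base, searched on both strands, was in 46.7% of the list's promoter windows (7 of 15) and in 2.65% of all. Among genes that fell more than 2-fold it was in 4.69%, and among those that rose more than 2-fold in 1.98%. The 7 include Trib3 and Nupr1 (-0.44), called lower, and Vldlr (-0.09) and Fgf21 (-2.46), not called. The element is shown in capitals for 3 of the 7, all called lower.
Slc7a11: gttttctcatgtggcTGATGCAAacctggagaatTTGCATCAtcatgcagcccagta
Chac1: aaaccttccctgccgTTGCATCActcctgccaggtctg
Asns: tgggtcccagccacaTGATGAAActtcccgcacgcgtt
These lie at chr3:50443638-50443694 (minus strand) (Slc7a11, 2 matches), chr2:119351034-119351071 (plus strand) (Chac1) and chr6:7693210-7693247 (minus strand) (Asns).

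Genes of amino acid supply mostly fell as well. Of 14 amino acid transporters, 2 rose, 9 fell and 3 did not pass the test (median -0.78). Among them the cationic transporter gene Slc7a1 (-1.30 ± 0.08), the glycine transporter gene Slc6a9 (-1.43 ± 0.11) and the large neutral transporter gene Slc7a5 (-1.11 ± 0.07) were lower. Slc7a6 (0.79 ± 0.09) and Slc38a1 (0.62 ± 0.11) were higher. Of 12 serine, glycine and one-carbon enzymes, 0 rose, 11 fell and 1 did not pass the test (median -0.76). They were led by Aldh1l2 (-1.23 ± 0.08), the phosphoenolpyruvate carboxykinase gene Pck2 (-1.17 ± 0.09) and Psph (-1.12 ± 0.09). Of 20 cytosolic aminoacyl-tRNA synthetases, 6 rose, 11 fell and 3 did not pass the test (median -0.25). The lower ones included Sars (-1.21 ± 0.06), Yars (-1.07 ± 0.07) and Wars (-1.03 ± 0.09), and Farsb (0.72 ± 0.07) and Dars (0.58 ± 0.06), both on chromosome 1, were among the higher.

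Most ribosomal protein genes measured were lower in KO than in WT at day 14, while the proteasome genes were higher. Of 22 genes for cytosolic ribosomal proteins, 1 rose, 19 fell and 2 did not pass the test (median -0.59). Rpl4 had 903.3 and 926.5 CPM in KO, against 1784 and 1823 CPM in WT (-0.98 ± 0.06). The stalk protein gene Rplp0 had 379.0 and 392.1 CPM in KO, against 864.1 and 709.3 CPM in WT (-1.03 ± 0.08), and in both genes the libraries did not overlap. Rpl27 rose (0.45 ± 0.11) and Rpl7 (0.09 ± 0.06) and Rpl14 (-0.17 ± 0.07) were not called. Ribosomal protein genes have many processed pseudogenes, so reads could be split between copies. Of 21 genes for proteasome subunits, 21 rose, 0 fell and 0 did not pass the test (median 0.84). KO and WT did not overlap for 21 of them, which adds nothing to the calls, since 6840 of the 6842 called genes did not overlap. Psmd1, of the regulatory particle and on chromosome 1, had 782.8 and 748.5 CPM in KO, against 293.1 and 296.9 CPM in WT (1.38 ± 0.06). Psma5, of the core, had 68.8 and 63.6 CPM in KO, against 34.1 and 30.1 CPM in WT (1.04 ± 0.10). Psmd11 was at 0.99 ± 0.07. The smallest rise was that of Psma6 (0.41 ± 0.08). Nfe2l1, which encodes a factor known to drive proteasome genes, fell (364.8 and 361.0 CPM in KO, against 702.6 and 703.4 CPM in WT, -0.95 ± 0.06).

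In both groups the KO effect differed by day. The proteasome list had a median of 0.84 at day 14 against 0.28 at day 1 and 0.26 at day 28. For 17 of 21 genes the KO effect at day 14 was called higher than at day 1, as it was for 17 against day 28. The ribosomal list had medians of -0.59 at day 14, -0.17 at day 1 and 0.04 at day 28, with 17 of 22 effects called lower than at day 1 and 20 lower than at day 28. Summed CPM of the proteasome genes were 3459 and 3373 in KO against 1927 and 1907 in WT at day 14. Those of the ribosomal genes were 6802 and 6920 in KO against 7712 and 7558 in WT at day 1. At day 14 they were 6807 and 6991 in KO against 10510 and 10077 in WT, so the KO sum changed little and the WT sum was higher.

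**Figure D4:**
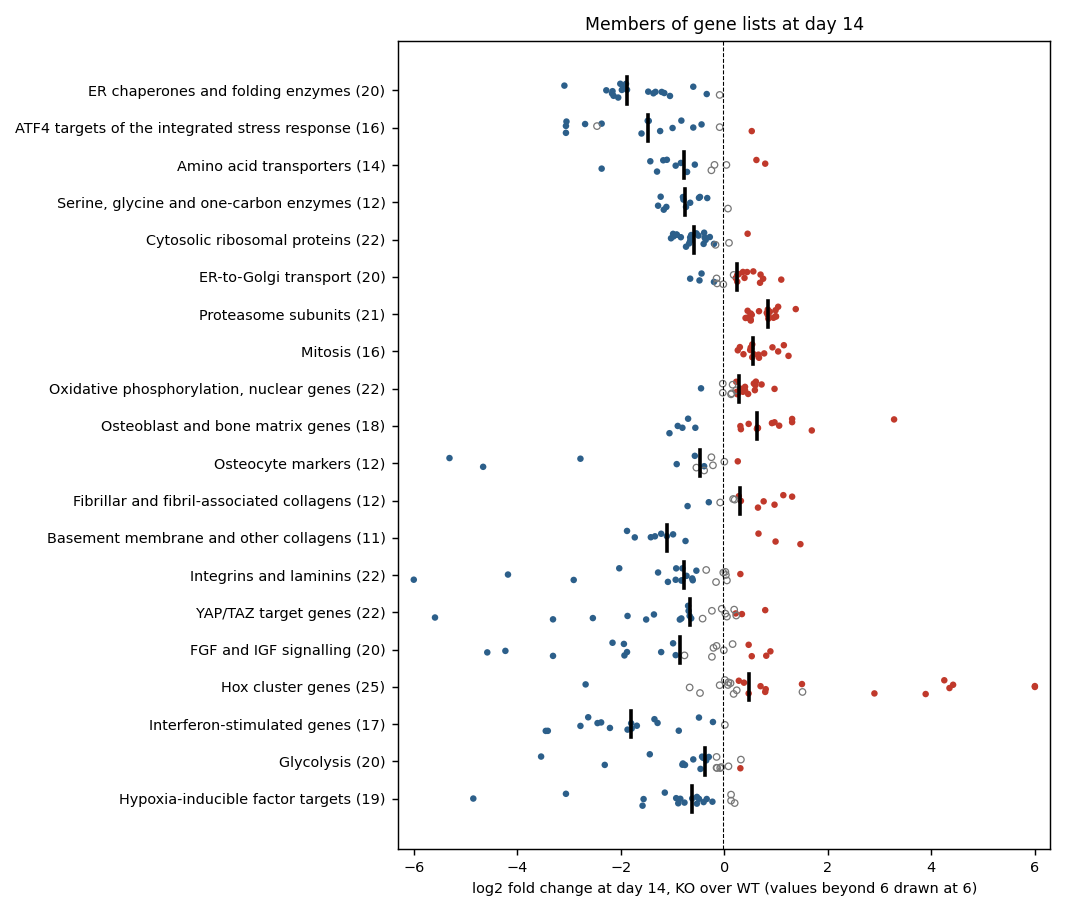
Log2 fold change of KO over WT at day 14 (horizontal axis) for the measured members of 20 gene lists (rows, number of members in parentheses). Filled red and blue points were called higher and lower, open points were not called, black bars are list medians and the dashed line is the median of all genes, -0.02; the ER chaperone bar lies at -1.89 and the proteasome bar at 0.84.

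Most fibrillar collagen and osteoblast genes measured were higher in KO at day 14. Of 12 fibrillar and fibril-associated collagen genes, 7 rose, 2 fell and 3 did not pass the test (median 0.30). Col1a1, for the main chain of bone collagen (chromosome 11, 94936224 to 94953042, plus strand), had 17934 and 17684 CPM in KO, against 6895 and 7504 CPM in WT (1.31 ± 0.16, adjusted p = 6.55e-07). Its partner Col1a2 had 14897 and 14928 CPM in KO, against 9172 and 9807 CPM in WT (0.65 ± 0.11). Col11a1 (0.97 ± 0.08) and Col3a1 (0.76 ± 0.14) rose as well, and Col5a3 fell (-0.71 ± 0.11). At day 1 Col1a1 averaged 6464 ± 67.9 CPM in KO and 4812 ± 102.0 CPM in WT, and at day 28 2261 ± 780.0 CPM in KO and 2550.1 ± 712.0 CPM in WT. Its effect at day 14 exceeded that at day 1 by 0.88 ± 0.22 and that at day 28 by 1.48 ± 0.22.

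Of 18 osteoblast and bone matrix genes, 13 rose, 5 fell and 0 did not pass the test (median 0.64). The osteogenic transcription factor genes Runx2 (341.6 and 313.7 CPM in KO, against 176.9 and 170.0 CPM in WT, 0.92 ± 0.10) and Sp7 (526.6 and 511.9 CPM in KO, against 262.4 and 236.4 CPM in WT, 1.06 ± 0.16) rose. Both had KO libraries above both WT libraries. Ifitm5, an osteoblast membrane protein gene (1.31 ± 0.15) and the sphingomyelinase gene Smpd3 (0.97 ± 0.19) rose too. Sparc was called higher (0.31 ± 0.12), but not with DESeq2 (adjusted p = 0.2) or with library totals only (0.27). Nor was it called without any 1 of the 4 libraries, when its fold change lay between 0.29 and 0.33. The list shares Col1a1, Col1a2, Sparc, Atf4 and Msx2 with other lists. The members that fell were Atf4 and genes for mineral-binding proteins, with Ibsp (2349 and 2438 CPM in KO, against 3532 and 3534 CPM in WT), Spp1, for osteopontin (-0.81 ± 0.09), and the osteocalcin gene Bglap2 (-1.06 ± 0.14) and its near-identical copy Bglap (-0.90 ± 0.28), between which reads could be split. Bglap was not called without KO replicate 1 (-0.88), KO replicate 2 (-0.92) or WT replicate 1 (-0.45).

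Of 12 osteocyte markers measured, 1 rose, 6 fell and 5 did not pass the test (median -0.46). Their summed CPM were 302.0 and 315.5 in KO, against 334.4 and 328.0 in WT. Most of this sum came from members not named here. The markers named below were lower or not called, and the member that rose is not among them. The matrix phosphoprotein gene Dmp1 had 7.27 and 7.29 CPM in KO, against 11.9 and 16.1 CPM in WT (-0.92 ± 0.23). The sclerostin gene Sost had 0.755 and 0.343 CPM in KO, against 0.506 and 1.16 CPM in WT and was not called (adjusted p = 0.523). Mepe, another matrix phosphoprotein gene, had 1.23 and 1.20 CPM in KO, against 0.843 and 2.20 CPM in WT, so these defining markers of mature osteocytes were at low levels in both lines at day 14. The Wnt inhibitor gene Dkk1 was 44-fold (95% interval 11.8 to 369) lower in KO. The chemokine scavenger gene Ackr3 (0.283 and 0.257 CPM in KO, against 8.01 and 5.90 CPM in WT, -4.66 ± 0.48) and the phosphatase receptor gene Ptprz1 (-2.78 ± 0.47) fell. The secretory kinase gene Fam20c fell less (-0.57 ± 0.10). The median of this list was between -0.25 and -0.77 when 1 WT library was left out. Of 13 phosphate and mineralization genes 4 rose, 6 fell and 3 did not pass the test (median -0.39). Among them the pyrophosphate-making gene Enpp1 was lower (1.70 and 1.97 CPM in KO, against 9.70 and 9.37 CPM in WT, -2.37 ± 0.24) and the phosphate transporter gene Slc20a2 higher (0.82 ± 0.10); without WT replicate 2 the median was -0.09. Of 6 osteoclast-regulating factors, 1 rose, 2 fell and 3 did not pass the test (median -0.12). Among them Csf1 (-0.52 ± 0.08) was lower and Sema3a (0.36 ± 0.08) higher. Tnfrsf11b, for osteoprotegerin, was at -0.17 ± 0.13, and Tnfsf11, for RANKL, had too few counts to test, with 1 and 1 in KO and 7 and 6 in WT.

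Most laminin, integrin and non-fibrillar collagen genes measured were lower in KO. Of 11 basement membrane and other collagens, 3 rose, 8 fell and 0 did not pass the test (median -1.11). The type IV chain genes Col4a1 (-0.99 ± 0.08) and Col4a2 (-1.34 ± 0.08), Col8a1 (-1.88 ± 0.09), Col15a1 (-1.22 ± 0.11) and Col18a1 (-1.73 ± 0.08) fell. The 3 that rose were the type VI chain genes Col6a1 (0.66 ± 0.08), Col6a2 (0.99 ± 0.10) and Col6a3 (5512 and 5418 CPM in KO, against 1976 and 1973 CPM in WT, 1.47 ± 0.11). Of 22 integrins and laminins, 1 rose, 15 fell and 6 did not pass the test (median -0.77). The laminin chain gene Lama2 had 0 and 0 CPM in KO, against 22.8 and 23.6 CPM in WT, and was at least 172-fold lower in KO. Lama1 fell as well (-2.91 ± 0.10). Lama4 was at -0.73 ± 0.09, and the beta-5 integrin gene Itgb5 fell (-0.83 ± 0.06), while Itgb1, for the common beta-1 subunit, was at 0.02 ± 0.06 and not called.

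Of 19 collagen processing and cross-linking genes, 8 rose, 5 fell and 6 did not pass the test (median 0.19). Among them the collagen chaperone genes Fkbp10 (0.89 ± 0.09) and Serpinh1 (0.42 ± 0.06) and the procollagen protease gene Bmp1 (0.86 ± 0.08) were higher and the lysyl oxidase-like gene Loxl4 (-1.06 ± 0.08) and the prolyl hydroxylase gene P4ha1 (-0.53 ± 0.12) lower. Of 18 matrix proteoglycans and glycoproteins, 8 rose, 6 fell and 4 did not pass the test (median 0.24). Among them periostin, Postn (0.94 ± 0.10), and Fbln1 (0.93 ± 0.08) were higher and thrombospondin 1, Thbs1 (-1.53 ± 0.09), lower. The median of this list turned to -0.05 once chromosome medians were removed. Of 17 matrix proteases and inhibitors, 6 rose, 8 fell and 3 did not pass the test (median -0.11). The collagenase gene Mmp13 rose (47.8 and 48.4 CPM in KO, against 7.08 and 6.71 CPM in WT, 2.79 ± 0.24), as did the gelatinase gene Mmp2 (1.04 ± 0.08), and the protease inhibitor gene Timp3 fell (76.5 and 86.7 CPM in KO, against 359.5 and 350.5 CPM in WT, -2.12 ± 0.08).

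YAP/TAZ target genes, which respond to cell spreading and tension, mostly fell: 3 rose, 12 fell and 7 did not pass the test (median -0.66), of 22. Amotl2 had 133.3 and 132.6 CPM in KO, against 323.3 and 357.6 CPM in WT (-1.36 ± 0.08). Ankrd1 (-2.54 ± 0.19), Ccn1 (-0.70 ± 0.07) and Ccn2 (-1.51 ± 0.19) fell with it, against a rise of Foxf2 (0.79 ± 0.16). Of 21 contractile actin cytoskeleton genes, 9 rose, 5 fell and 7 did not pass the test (median 0.13). Among them Tpm1 (0.88 ± 0.07) and Tagln2 (1.02 ± 0.13) were higher and Tagln (-1.31 ± 0.17) and Cnn1 (-2.23 ± 0.27) lower, and Tmod2 was at least 29-fold lower. Of 18 mechanosensitive channels and connexins, 6 rose, 8 fell and 4 did not pass the test (median -0.17). The gap junction gene Gja1, for connexin 43, had 322.1 and 320.9 CPM in KO, against 111.7 and 116.8 CPM in WT (1.49 ± 0.09). The channel genes Trpv4 (1.11 ± 0.13) and P2rx7 (1.16 ± 0.10) rose. Piezo2, for the paralogue of Piezo1, had 4.53 and 3.26 CPM in KO, against 26.6 and 28.0 CPM in WT (-2.81 ± 0.15) and Pkd2 fell (-1.0 ± 0.06).

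Signalling lists were mixed in direction, as were all genes tested, of which 23.8% rose and 25.9% fell. Of 20 FGF and IGF signalling genes, 4 rose, 10 fell and 6 did not pass the test (median -0.85). Among them the ligand genes Fgf7 (-1.94 ± 0.14) and Igf2 (-1.88 ± 0.09) and the feedback gene Spry1 (-2.16 ± 0.17) were lower and the receptor genes Fgfr1 (0.47 ± 0.09), Fgfr2 (0.53 ± 0.10) and Fgfr3 (0.81 ± 0.08) higher. Among Wnt ligands and secreted inhibitors 7 rose, 5 fell and 6 did not pass the test (median -0.17), of 18. The ligand gene Wnt4 rose (1.36 ± 0.13), and the inhibitor genes Sfrp2 (-1.42 ± 0.11) and Dkk3 (-0.68 ± 0.07) fell, opposite to Sfrp1 and Wif1. The median of the Wnt list was 0.07 without WT replicate 2 and -0.44 without WT replicate 1. Of 14 Wnt/beta-catenin target genes, 9 rose, 3 fell and 2 did not pass the test (median 0.46). Among them Lef1 (1.55 ± 0.16), Apcdd1 (1.42 ± 0.13), Rnf43 (1.21 ± 0.11) and Axin2 (0.68 ± 0.13) were higher and Nkd2 (-1.60 ± 0.18) lower.

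Of 20 BMP and TGF-beta ligands and targets, 5 rose, 9 fell and 6 did not pass the test (median -0.18). The activin subunit genes Inhbb (2.08 ± 0.19) and Inhba (-2.54 ± 0.10) moved in opposite directions, and the BMP antagonist genes Chrdl1 (-5.37 ± 0.33) and Grem1 (-2.43 ± 0.29) fell. Of 11 Notch pathway genes, 4 rose, 3 fell and 4 did not pass the test (median 0.12). Among them Hey1 (1.54 ± 0.17) and Lfng (1.86 ± 0.18) were higher and the ligand gene Jag2 (-1.82 ± 0.21) lower. Of 10 parathyroid hormone and vitamin D response genes, 3 rose, 0 fell and 7 did not pass the test (median 0.12), among them Rgs2 (1.27 ± 0.26). Of 15 glucocorticoid-responsive genes, 3 rose, 5 fell and 7 did not pass the test (median -0.14). Among them Klf15 and the metallothionein gene Mt1 (-0.45 ± 0.08) were lower. The kinase gene Sgk1 was called higher (0.58 ± 0.20), but not without KO replicate 1 (0.27), WT replicate 1 (0.59) or WT replicate 2 (0.56). Of 20 axon guidance and dendrite genes, 7 rose, 7 fell and 6 did not pass the test (median 0.03). Among them Efnb2 (1.16 ± 0.09) was higher and Sema3d (-1.97 ± 0.12) and Slit3 (-1.32 ± 0.09) lower.

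Hox genes were more often higher than lower in KO. Of 25 Hox genes, 14 rose, 1 fell and 10 did not pass the test (median 0.47). Hoxb9 had 27.7 and 33.9 CPM in KO, against 1.52 and 1.74 CPM in WT (4.25 ± 0.20). Hoxb6 (2.90 ± 0.28) and Hoxd8 (4.35 ± 0.32) rose likewise. Hoxd3, whose annotation overlaps Hoxd4 and which had 0 counts in both WT libraries, was at least 18.1-fold higher in KO, while Hoxa9 was at 0.38 ± 0.10 and Hoxa5 at 0.18 ± 0.19. Hoxb2 had 0 and 0.171 CPM in KO, against 0.843 and 0.347 CPM in WT, too few counts to rest on, since its call was lost without KO replicate 1 or WT replicate 1. Of 16 craniofacial and limb patterning factors, 6 rose, 2 fell and 8 did not pass the test (median 0.12). Zic2 had 20.7 and 21.2 CPM in KO, against 0.337 and 0.579 CPM in WT (5.54 ± 0.34). Msx2 was at 3.28 ± 0.47 and the limb mesenchyme gene Prrx1 at 1.08 ± 0.10, while Alx1 was 229-fold (95% interval 40.7 to 9090) lower in KO. Over the 25 Hox genes, the KO effect at day 14 was called higher than at day 1 for 1 gene and higher than at day 28 for 5, and lower for 0 at either day.

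Glycolysis genes were mostly lower in KO, and many of them less so than at day 1. Of 20, 1 rose, 12 fell and 7 did not pass the test (median -0.38), while the medians were -0.97 at day 1 and -0.80 at day 28. The glucose transporter gene Slc2a1 had 49.5 and 58.5 CPM in KO, against 145.8 and 148.0 CPM in WT (-1.44 ± 0.09). The lactate exporter gene Slc16a3 had 1.13 and 1.11 CPM in KO, against 13.5 and 12.8 CPM in WT (-3.54 ± 0.38), and neither gene had overlapping libraries. Aldoa (-0.15 ± 0.14) and Ldha (-0.15 ± 0.13) were not called at day 14, while their fold changes at day 1 were -1.29 ± 0.14 and -1.07 ± 0.13. For 12 of the 20 genes the effect at day 14 was called higher than at day 1, and for 9 it was called higher and for 3 lower than at day 28. Of 19 hypoxia-inducible factor targets, 0 rose, 16 fell and 3 did not pass the test (median -0.62) (against -1.72 at day 1 and -0.74 at day 28), and 11 effects were called higher than at day 1. The peptide hormone gene Adm had 0.283 and 0 CPM in KO, against 3.96 and 4.40 CPM in WT and was 30.8-fold (95% interval 10.2 to 152) lower. The ER oxidase gene Ero1l (-1.58 ± 0.09) and the vascular growth factor gene Vegfa (-0.89 ± 0.06) fell too. The hypoxia element core ACGTG was in 65.0% of the glycolysis windows (13 of 20) and in 29.1% of all, against 24.4% of genes that fell more than 2-fold and 19.8% of those that rose more than 2-fold.

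Respiratory chain genes rose modestly. Of 22 nuclear oxidative phosphorylation genes, 15 rose, 1 fell and 6 did not pass the test (median 0.29). Among them Ndufa4 (0.97 ± 0.11), Ndufs1 (0.72 ± 0.07) and Atp5b (0.61 ± 0.06) were higher and Ndufv1 (-0.45 ± 0.08) lower. Of 12 mitochondrially encoded genes, 7 rose, 0 fell and 5 did not pass the test (median 0.65). The complex I gene mt-Nd2 had 1556 and 1532 CPM in KO, against 730.2 and 617.6 CPM in WT (1.19 ± 0.16). Mitochondrially encoded genes took 1.88% and 1.93% of counts in KO, against 1.33% and 1.12% in WT. Of 20 antioxidant and glutathione genes, 11 rose, 2 fell and 7 did not pass the test (median 0.31), with glutathione reductase, Gsr (1.22 ± 0.10), higher and Slc7a11 lower. Txnip (2.16 ± 0.12) was counted among those that rose, though it does not encode an antioxidant enzyme. Lysosome and vacuolar ATPase genes mostly fell (2 rose, 11 fell and 7 did not pass the test, median -0.18, of 20), as in the cathepsin gene Ctsl (-1.29 ± 0.08). In sterol synthesis 4 rose, 6 fell and 11 did not pass the test (median -0.02), of 21. In fatty acid and lipid storage 4 rose, 4 fell and 10 did not pass the test (median -0.05), of 18. In both lists these shares lay near those of all genes tested, 23.8% higher and 25.9% lower. Among their members Insig1 (-0.95 ± 0.08) and Srebf1 (-0.69 ± 0.10) were lower and Elovl6 (66.2 and 62.8 CPM in KO, against 17.96 and 16.4 CPM in WT, 1.90 ± 0.13) higher.

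Mitosis genes rose throughout: 16 rose, 0 fell and 0 did not pass the test (median 0.56), of 16. Plk1 had 55.3 and 57.4 CPM in KO, against 23.7 and 24.2 CPM in WT (1.24 ± 0.09). Cenpf, on chromosome 1, had 1149 and 1154 CPM in KO, against 494.6 and 545.7 CPM in WT (1.15 ± 0.07) and Mki67 was at 0.77 ± 0.06. For 9 of them the effect was called higher than at day 1 and for 12 higher than at day 28. Of 16 DNA replication genes, 8 rose, 3 fell and 5 did not pass the test (median 0.10). This median turned to -0.015 once chromosome medians were removed. Mcm3 (0.36 ± 0.06) and Mcm6 (0.36 ± 0.06), both on chromosome 1, turned to -0.05 and -0.05 in that fit, and Mcm7 (-0.58 ± 0.08) fell. Of 19 p53 target genes, 10 rose, 5 fell and 4 did not pass the test (median 0.23). Among them Zmat3 (1.05 ± 0.13), Phlda3 (1.12 ± 0.11) and Ccng1 (0.61 ± 0.07) were higher, Cdkn1a (-0.14 ± 0.09) not called, and Perp at least 13-fold lower.

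Interferon-stimulated genes were lower in KO than in WT as a group: 0 rose, 16 fell and 1 did not pass the test (median -1.80), of 17. Of these, 13 fell more than 2-fold. The ubiquitin-like gene Isg15 had 4.72 and 6.69 CPM in KO, against 30.6 and 32.5 CPM in WT (-2.45 ± 0.19). The antiviral genes Oasl2 (6.80 and 7.37 CPM in KO, against 49.3 and 48.4 CPM in WT, -2.78 ± 0.13) and Ifit1 (0.944 and 1.63 CPM in KO, against 7.25 and 9.14 CPM in WT, -2.63 ± 0.32) were likewise low in both KO libraries and higher in both WT libraries. The transcription factor genes Irf7 (-2.21 ± 0.23) and Irf9 (-1.69 ± 0.11) fell, and Ifit2 (0.01 ± 0.09) was not called. Medians were -0.44 at day 1 and -1.82 at day 28, and the summed CPM of the list was 268.0 and 272.4 in KO against 571.1 and 582.5 in WT at day 14. At day 1 the sums were 226.7 and 230.3 in KO against 237.8 and 243.9 in WT, so both lines were higher at day 14, WT more so. The interferon-stimulated response element, TTTC and TTTC separated by 2 bases, was in 53.3% of the list's promoter windows (8 of 15) and in 3.58% of all. It was in 5.83% of genes that fell more than 2-fold and in 3.96% of those that rose more than 2-fold. The 8 include Ifit3 (-1.35), Ddx58 (-1.29), Ifih1 (-0.88) and Stat2 (-0.22), all called lower and not shown. The element is shown in capitals for 4 of the 8.
Isg15: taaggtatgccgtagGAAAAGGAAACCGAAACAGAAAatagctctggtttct
Ifit1: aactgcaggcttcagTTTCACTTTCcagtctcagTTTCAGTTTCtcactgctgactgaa
Bst2: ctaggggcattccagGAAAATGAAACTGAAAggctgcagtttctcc
Rsad2: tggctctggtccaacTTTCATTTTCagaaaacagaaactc
These lie at chr4:156200860-156200911 (minus strand) (Isg15), chr19:34640770-34640828 (plus strand) (Ifit1), chr8:71537572-71537617 (minus strand) (Bst2) and chr12:26456548-26456587 (minus strand) (Rsad2), and in Isg15 and Bst2 the matches are on the other strand and overlap.

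Other immune and stress lists had medians nearer 0. Their counts are read against the 23.8% of all genes tested that rose and the 25.9% that fell. Of 14 genes of MHC class I and antigen presentation, 2 rose, 3 fell and 9 did not pass the test (median -0.06). Among them the class I regulator gene Nlrc5 was higher (79.95 and 77.0 CPM in KO, against 27.8 and 27.5 CPM in WT, 1.5 ± 0.11) and B2m at 0.06 ± 0.06. Of 10 complement genes, 2 rose, 6 fell and 2 did not pass the test (median -0.56). Among them C1s1 was lower (-0.88 ± 0.13), and the 2 that rose did so more than 2-fold. Summed CPM of the 10 genes were higher in KO, at 332.4 and 325.3 against 202.4 and 216.7 in WT. Of 12 NF-kB and chemokine genes, 1 rose, 3 fell and 8 did not pass the test (median -0.09). Among them Ptgs2 was higher (1.40 ± 0.18) and Relb lower (-0.65 ± 0.14). Of 19 immediate early genes, 3 rose, 11 fell and 5 did not pass the test (median -0.40). Among them Maff (-1.49 ± 0.13) and Jun (-0.40 ± 0.10) were lower and Ier5 higher (0.89 ± 0.09). Of 15 cytosolic heat shock genes, 5 rose, 4 fell and 6 did not pass the test (median 0.06). Among them Hspb8 was higher (1.12 ± 0.11) and Hspa8 lower (-0.40 ± 0.07). Of 16 circadian clock genes, 3 rose, 3 fell and 10 did not pass the test (median -0.07), with Nr1d2 lower (-0.57 ± 0.09) and Npas2 higher (0.82 ± 0.17).

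Markers of adipocytes, skeletal muscle, blood cells and endothelium were at low levels, and those of chondrocytes and of fibroblasts and tendon were higher. Over the measured members, summed CPM were 71.9 and 70.2 in KO and 117.4 and 124.2 in WT for 9 chondrocyte markers (1 rose, 4 fell and 4 did not pass the test, median -0.74). They were 26.5 and 25.6 in KO and 29.2 and 28.9 in WT for 5 adipocyte markers (1 rose, 2 fell and 2 did not pass the test, median -1.19), and they were 7.65 and 8.74 in KO and 16.6 and 18.6 in WT for 3 skeletal muscle markers (0 rose, 2 fell and 1 did not pass the test, median -3.05). They were 13.2 and 13.3 in KO and 14.9 and 23.1 in WT for 6 blood cell markers (0 rose, 1 fell and 5 did not pass the test, median -0.44). They were 2.55 and 1.97 in KO and 13.6 and 10.2 in WT for 4 endothelial markers (0 rose, 2 fell and 2 did not pass the test, median -1.93). The defining genes Myod1, Myog, Cd3e, Plin1 and Lep had 0 counts in all 4 libraries. For 5 fibroblast and tendon markers the sums were 205.3 and 195.6 in KO and 160.7 and 164.1 in WT (3 rose, 0 fell and 2 did not pass the test, median 0.37). The chondrocyte median was 0.12 without WT replicate 1 and the blood cell median -0.08 without WT replicate 2. The part of such cells in the results above was not tested, and fewer cells of a kind and less RNA per cell cannot be told apart in bulk samples.

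Fold changes also depended on the chromosome. The median log2 fold change at day 14 was 0.41 over the 821 genes of chromosome 1, 57.6% of which were called higher, and 0.175 over the 562 genes of chromosome 15. It was -0.29 on chromosome 5, -0.27 on chromosome 19, -0.25 on chromosome 16 and -0.22 on chromosome 4. The same chromosomes stood apart at day 1 (0.38 on chromosome 1 and -0.30 on chromosome 5) and at day 28 (0.41 and -0.29). The medians of the other nuclear chromosomes lay between -0.11 and 0.13. Once these medians were removed, 6266 genes were called at day 14, 5502 of them among the 6842. Of the genes named here, Col3a1 (0.35), Edem3 (0.12), Npas2 (0.42), Omd (0.38), Ibsp (-0.27), Jun (-0.17), Ndufv1 (-0.18), mt-Cytb (0.26) and mt-Nd5 (0.10) were then no longer called. Txndc5 (-0.20), Alg12 (-0.45), Tnfrsf11b (-0.35), Rpl7 (-0.32) and Ifit2 (0.28), not called before, were called in that fit. Why the chromosomes differ was not tested. In that fit the median was -1.80 for the ER chaperone list, 0.78 for the proteasome list and -1.87 for the interferon list.

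**Figure D5:**
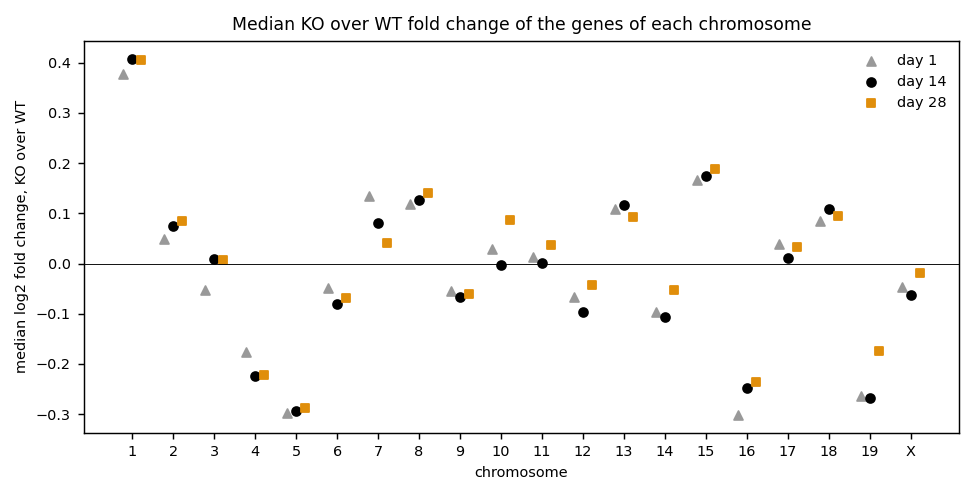
Median log2 fold change of KO over WT (vertical axis) over the genes tested on each chromosome (horizontal axis) at days 1, 14 and 28 (triangles, circles and squares). Chromosome 1 lies near 0.4 and chromosomes 4, 5, 16 and 19 below 0 at all 3 days.

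Several genes whose KO effect differed most between days encode ER proteins. The log2 fold change at day 14 minus that at day 1 was -3.12 ± 0.70 in Klf15, -2.87 ± 0.28 in the phosphatase gene Ppm1l, -2.69 ± 0.10 in Calr, -2.66 ± 0.16 in Sdf2l1, -2.45 ± 0.10 in Manf and -2.42 ± 0.18 in the ER oxidase gene Ero1lb. Thus 4 of these 6 encode ER proteins. At the other end it was 4.49 ± 0.57 in Adamtsl1, 3.93 ± 0.43 in the adenylate kinase gene Ak4, 3.74 ± 0.56 in the elastin gene Eln, 3.66 ± 0.49 in the heparanase gene Hpse, 3.44 ± 0.29 in Ankrd37 and 3.22 ± 0.32 in the prolyl hydroxylase gene P3h2. All 6 were called lower in KO at day 1. At day 14 the fold changes were nearer 0, with Ankrd37 not called (0.13 ± 0.18) and Eln called lower (-0.84 ± 0.19) but not with DESeq2 (adjusted p = 0.0815). Eln averaged 0.477 ± 0.0503 CPM in KO and 11.5 ± 0.71 CPM in WT at day 1 and 35.8 ± 1.80 CPM in KO and 63.9 ± 5.55 CPM in WT at day 14.

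The log2 fold change at day 14 minus that at day 28 was -4.44 ± 0.47 in Klf15, -4.31 ± 0.35 in Car6, -3.94 ± 0.12 in Cdsn, -3.31 ± 0.41 in the transcription factor gene Tfcp2l1 and -3.28 ± 0.28 in Sspo. Lama2 was called lower as well, with 0 counts in KO at day 14. Cdsn averaged 19.97 ± 1.94 CPM in KO and 186.0 ± 10.9 CPM in WT at day 14 and 303.7 ± 13.5 CPM in KO and 183.8 ± 20.3 CPM in WT at day 28, so its direction differed between the days. At the other end it was 3.78 ± 0.20 in Car3, 3.05 ± 0.29 in the keratan sulphate proteoglycan gene Omd, 2.57 ± 0.52 in Ndufa4l2, 2.52 ± 0.21 in Filip1l, 2.34 ± 0.33 in Tmem100 and 2.33 ± 0.17 in Plxna2. Omd averaged 43.3 ± 0.672 CPM in KO and 30.7 ± 0.549 CPM in WT at day 14 and 3.25 ± 0.177 CPM in KO and 18.8 ± 8.58 CPM in WT at day 28. At day 14 Omd was called higher (0.50 ± 0.16), but not with DESeq2 (adjusted p = 0.122). Nor was it called without any 1 of the 4 libraries, when its fold change lay between 0.48 and 0.51.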

How the data were processed

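Bulk RNA of KO and WT OCY454 cells was sequenced after poly(A) selection, in 12 libraries of 6 groups. The authors deposited 1 table of read counts per gene, not normalized; STAR, featureCounts of Subread, edgeR and the build mm10 stand in the submitters' processing notes, and neither versions nor the strand setting are given there. From the deposited counts, 13772 of 32248 genes passed edgeR's filter (minimum count 10, minimum total 15); 9345 rows had no count, and 3 transgene rows were left out of totals and tests. edgeR 4.0.16 (R 4.3.3) was used for TMM scaling and a quasi-likelihood fit of the 6 groups over all 12 libraries, with Benjamini-Hochberg adjustment over all genes tested, and genes with an adjusted p below 0.05 were called. Residual degrees of freedom were 6, and the common coefficient of biological variation was 5.53%. The KO effect at day 14 was compared with that at day 1 and at day 28 by interaction contrasts in that fit. The day 14 contrast, but not the interaction contrasts, was tested on simulated data in which the groups did not otherwise differ. Libraries held 8590132 to 15357433 counts, with TMM factors between 0.9417 and 1.051. Levels are CPM, counts relative to TMM-scaled totals, with SD over 2 libraries.

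Named genes are Piezo1, the 12 highest and 12 lowest fold changes at a mean of at least 50 CPM in 1 group, the 10 largest gains and 10 largest losses in CPM, the 6 highest and 6 lowest differences between days at 20 CPM or more (all among messenger RNA genes), and in each gene list up to 4 members with the lowest adjusted p and, where members went both ways, any measured member; a few genes under this rule are not reported here. Outside that rule, genes with the ER stress element, genes whose promoters are shown and further ER folding, hypoxia, proteasome and interferon genes were chosen after their values were seen. The comparison, the 57 gene lists and the rules were chosen with earlier results of these data known. Where a group had 0 counts, the fold is a bound from 3 counts over the group. For 1 to 3 counts, an exact binomial 95% interval is given, which covers counting error only. Gene positions are from GENCODE on GRCm38 (99.2% of tested genes matched by symbol), and promoter windows are from RefSeq. Alternatives were RLE scaling, library totals only, no filter, DESeq2 1.42.0, a replicate block, removal of chromosome medians, the 4 libraries of day 14 alone, and each library left out.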

Additional observations from a re-analysis of the deposited data

Results flagged for a closer look

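The KO effect on 2595 genes differed between day 14 and day 1, and on 3323 genes between day 14 and day 28, by the interaction contrasts of edgeR's quasi-likelihood fit (adjusted p below 0.05). Without KO day 1 replicate 2 or without KO day 14 replicate 1, the count against day 1 was 1668 or 1679. The following genes had the largest such differences at 20 CPM or more in 1 of the groups, each given as the log2 fold change at day 14 minus that at the other day.

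Against day 1, the lowest differences were in the transcription factor gene Klf15 (-3.12), the phosphatase gene Ppm1l (-2.87) and the ER genes Calr (-2.69), Sdf2l1 (-2.66), Manf (-2.45) and Ero1lb (-2.42). In Klf15 and Sdf2l1 KO was below WT at both days and further below at day 14, and in Calr and Manf KO was above WT at day 1 and below it at day 14. The highest differences were in Adamtsl1 (4.49), the nucleotide kinase gene Ak4 (3.93), the elastin gene Eln (3.74), the heparanase gene Hpse (3.66), Ankrd37 (3.44) and the collagen-modifying gene P3h2 (3.22), all of them below WT at day 1.

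Against day 28, the lowest differences were in the laminin gene Lama2 (-5.33, a fitted value and no bound, since KO had 0 counts at day 14), Klf15 (-4.44), the carbonic anhydrase gene Car6 (-4.31), Cdsn (-3.94), Tfcp2l1 (-3.31) and Sspo (-3.28). The highest were in Car3 (3.78), the proteoglycan gene Omd (3.05), Ndufa4l2 (2.57), Filip1l (2.52), Tmem100 (2.34) and the plexin gene Plxna2 (2.33). In Filip1l KO was above WT at day 14 and below it at day 28.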

How the results depend on the processing

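The number of genes called at day 14 (6842) was 6844 with RLE scaling, 6790 with library totals only, 6770 with no filter, 5909 with DESeq2, 6266 with chromosome medians removed, 7506 from the 4 libraries of day 14 alone and 5421 to 5684 when 1 library of day 14 was left out. The count of effects that differed from day 1 (2595) was 1668 to 1914 when 1 library was left out. It was 1668 without KO day 1 replicate 2 and 1679 without KO day 14 replicate 1. Whether the smaller number of samples lowered these counts was not tested. Under the other alternatives the count that differed from day 1 was 1964 to 2970. The count that differed from day 28 (3323) was 2426 to 4165 when 1 library was left out and 2622 to 3641 under the other alternatives. Same-numbered samples did not deviate together at day 1 or day 14 (correlation of deviations -0.025 and -0.016), but did so weakly at day 28 (0.242). The labels do not say whether same-numbered samples share more than a number. With the replicate block 6997 genes were called at day 14, 2970 differed from day 1 and 3641 from day 28. Of the genes named, those that reversed did so once chromosome medians were removed: Col5a2 to -0.09, Mcm3 to -0.05, Mcm6 to -0.05, Rpl7 to -0.32 and mt-Co1 to -0.32. The median of the Wnt ligand list (-0.17) was -0.444 without WT replicate 1 and turned to 0.068 without WT replicate 2. Removing chromosome medians moved 27 of 57 list medians by more than the replicate spread, among them those of the heat shock (0.06 to -0.04), axon guidance (0.03 to -0.14) and mitochondrially encoded genes (0.65 to 0.002, by construction). The cause was not tested for the other changes. Where genes have few counts in KO, depth limits the fold change to a bound or a wide interval.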
